A study of Mus musculus with 58 samples.

Results

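The 29 wild-type (WT) brain arrays of this mouse series were described by how strongly each one expressed neuronal immediate early genes. The members are all WT arrays, 29 of the 58 arrays in the series, 14 of the frontal cortex and 15 of the hippocampus. Each array received a score, the mean log2 intensity of Fos, Egr2, Arc, Junb and Nr4a1. These 5 genes were chosen by earlier results of the same data, so their values are given as a description and without a test. Every other gene was then related to the score within each region, with the male cohort (mouse numbers 38 to 53) and the female cohort (mouse numbers 1 to 14) each centred on its own mean. The question was which genes followed the score in both regions.

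The series asks how sex shapes the transcriptome of the APP/PS1 mouse, a model of Alzheimer's disease pathology. The WT groups hold 8 male arrays of each region, 6 female arrays of the frontal cortex and 7 of the hippocampus, from 15 mice. They carry no transgene by their labels. The transgenic (TG) arrays, which serve here as samples the agreement between regions did not use, number 8 and 8 in males and 6 and 7 in females for the same regions. All mice were 8 months old, WT and TG alike, on the C57BL/6J background, and no group received a treatment that the labels name. The promoters that drive the TG transgenes are not given in the sources used here. Brains were taken directly after decapitation and dissected on dry ice. Arrays of both regions are present for 14 of the 15 WT mice. Female WT mouse 3 and female TG mouse 7 have a hippocampus array only. No behaviour, handling or time of day is recorded beside the arrays. Cohort and sex cannot be told apart, because each cohort holds 1 sex.

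The median log2 value of an array was 4.73 to 4.85 throughout the series. Prox1, a transcription factor of dentate granule neurons, lay between 4.80 and 6.22 in the WT hippocampus arrays and between 3.10 and 3.42 in the WT frontal cortex arrays. Slc17a7, the vesicular glutamate transporter of cortical and hippocampal neurons, lay between 7.38 and 7.96 in all of them. A few arrays stood apart. The frontal cortex array of male mouse 51 had a mean of 8.52 over 15 interneuron markers against a median of 7.98 over the WT frontal cortex. The hippocampus arrays of male mouse 52 and female mouse 5 had means of 7.26 and 6.08 over 13 choroid plexus markers against a median of 4.10. Among the TG hippocampus arrays of females, that of mouse 7 had Thy1 at 10.92, within the WT range of 10.55 to 11.42, with the other TG arrays of both regions between 11.90 and 12.38, and that of mouse 4 had the lowest Prox1 (3.86) and Slc17a7 (6.50, with the other 6 between 7.38 and 7.66). For the genes that pass a WT fit or lead the order of agreement, slopes that these arrays move by over 1.5 times, and calls they end, are given with and without them.

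Immediate early genes are transcribed within minutes of strong synaptic input, without the need for new protein, and their RNA is short-lived. Calcium entering the neuron activates kinases that act on transcription factors already bound at these genes, among them CREB at cAMP response elements and serum response factor at CArG boxes. In cortex and hippocampus their RNA is widely used as a trace of recent neuronal activity, as after exploration or seizures. Fos and Junb encode subunits of the AP-1 transcription factor, Egr2 encodes a zinc-finger transcription factor and Nr4a1 an orphan nuclear receptor. Arc encodes a synaptic protein that promotes the removal of AMPA receptors from the membrane.

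The promoters of 5 genes that the results name are printed here, chosen because their windows hold a match to a textbook element of activity-induced genes. Whether these elements act in these arrays was not tested. Of 22 genes asked for, 18 have a window in RefSeq's table (build GRCm38.p6), each from 250 bases before to 50 bases after an annotated start site. Capitals mark every match on either strand to the cAMP response element TGACGTCA, its half-site TGACG, the AP-1 site TGACTCA, the EGR site GCGNGGGCG or the CArG box of serum response factor. A match to the full element is also a match to the half-site. Coordinates are chr12:85473640-85473939 (plus strand) for Fos, chr10:67537619-67537918 (plus strand) for Egr2, chr17:26508423-26508722 (minus strand) for Dusp1, chr1:134079106-134079405 (minus strand) for Btg2 and chr11:69099902-69100201 (plus strand) for Per1.
Fos: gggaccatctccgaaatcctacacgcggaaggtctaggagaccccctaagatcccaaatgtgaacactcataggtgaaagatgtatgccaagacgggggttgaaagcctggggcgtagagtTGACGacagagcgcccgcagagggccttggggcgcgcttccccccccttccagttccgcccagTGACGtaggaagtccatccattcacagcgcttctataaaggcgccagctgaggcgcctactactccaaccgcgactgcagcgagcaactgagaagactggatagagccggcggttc
Egr2: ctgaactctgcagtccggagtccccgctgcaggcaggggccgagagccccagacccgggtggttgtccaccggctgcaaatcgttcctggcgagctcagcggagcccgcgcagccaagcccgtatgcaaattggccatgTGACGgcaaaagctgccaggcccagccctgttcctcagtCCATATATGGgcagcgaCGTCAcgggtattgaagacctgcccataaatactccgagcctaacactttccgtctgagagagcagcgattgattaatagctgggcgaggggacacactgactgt
Dusp1: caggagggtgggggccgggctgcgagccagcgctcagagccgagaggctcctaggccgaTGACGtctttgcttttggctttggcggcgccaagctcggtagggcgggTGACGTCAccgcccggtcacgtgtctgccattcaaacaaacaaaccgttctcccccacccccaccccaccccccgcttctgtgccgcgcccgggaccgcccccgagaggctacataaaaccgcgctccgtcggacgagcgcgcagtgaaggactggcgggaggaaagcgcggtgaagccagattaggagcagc
Btg2: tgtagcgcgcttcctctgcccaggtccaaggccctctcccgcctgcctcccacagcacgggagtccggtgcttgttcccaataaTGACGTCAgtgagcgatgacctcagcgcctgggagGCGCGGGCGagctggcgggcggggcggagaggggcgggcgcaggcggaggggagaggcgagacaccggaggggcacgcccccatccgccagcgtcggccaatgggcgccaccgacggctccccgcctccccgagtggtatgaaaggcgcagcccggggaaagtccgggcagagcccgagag
Per1: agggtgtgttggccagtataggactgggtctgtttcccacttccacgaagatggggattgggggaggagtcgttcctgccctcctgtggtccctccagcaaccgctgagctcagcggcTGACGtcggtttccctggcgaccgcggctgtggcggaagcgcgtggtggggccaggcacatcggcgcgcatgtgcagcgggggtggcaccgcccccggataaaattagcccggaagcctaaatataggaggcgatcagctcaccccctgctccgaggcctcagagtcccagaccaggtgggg

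The Dusp1 window held the full element at position -143 and the Btg2 window at -166, counted from the start site. The full element occurred in 1.79% of all 32851 windows. The Fos window held half-sites at -129 and -66, and both windows of Per1 held 1, against 20.8% of all windows. The printed Egr2 window held a CArG box at -72, which 1.63% of all windows hold. AP-1 sites were found in 5.20% of all windows and EGR sites in 5.55%. In the windows of Tiparp, Sertad1 and Cnmd none of the 5 motifs was found. A match describes the letters only.

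The score had its widest range among the female hippocampus arrays and its narrowest among the male hippocampus arrays. The 8 male arrays of the frontal cortex had scores from 7.49 to 8.47 (median 8.06) and the 6 female arrays from 6.42 to 7.46 (median 7.02). These groups did not overlap, and the cohort mean was taken out of every later value. In the hippocampus the male arrays lay between 6.50 and 7.11 (median 6.88) and the female arrays between 5.92 and 7.62 (median 7.21), so that the female arrays reached both above and below all male ones. After centring, the frontal cortex scores spanned 1.04 log2 units (SD 0.35, n = 14) and the hippocampus scores 1.70 (SD 0.46, n = 15).

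**Figure D1:**
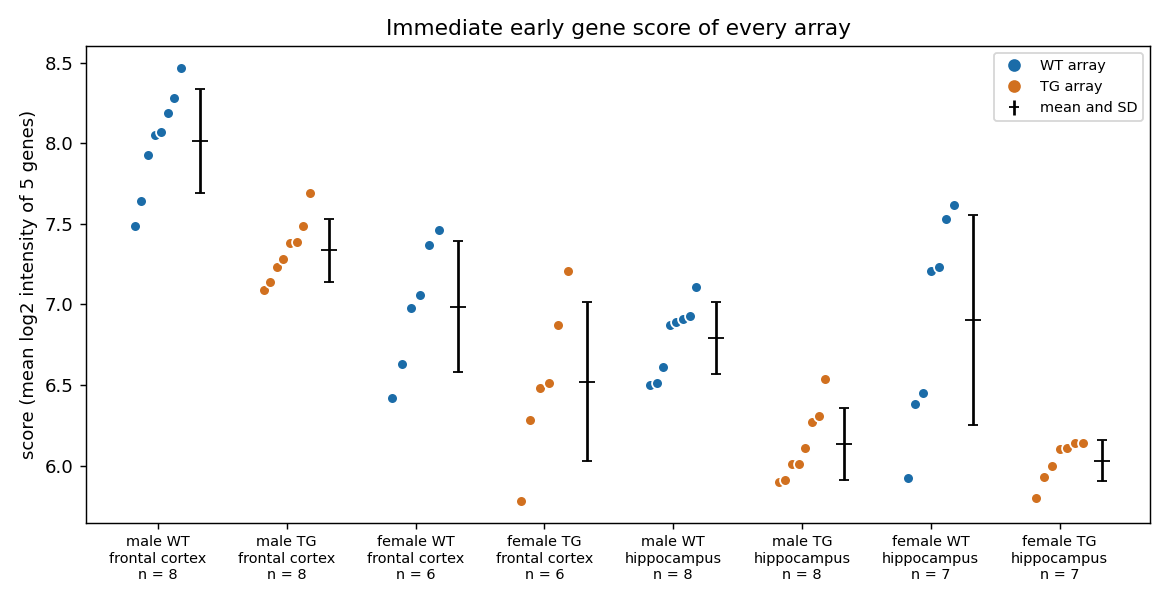
Score of each array (vertical axis, mean log2 intensity of Fos, Egr2, Arc, Junb and Nr4a1) by sex, genotype and region; points are arrays, placed in order of value within a group, and bars give the mean and SD. Male WT frontal cortex arrays lie between 7.49 and 8.47, above all female ones, and the female WT hippocampus arrays spread from 5.92 to 7.62.

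Among the score genes, Fos had the widest range in the hippocampus. In the female hippocampus Fos ran from 5.67 to 8.69 (median 8.12), and in the male hippocampus from 7.46 to 8.14 (median 7.90). The lowest Fos array of the WT hippocampus was that of female mouse 5, the highest that of female mouse 2. Arc ran from 6.85 to 8.70 (median 8.23) in the female hippocampus and from 7.26 to 8.22 (median 7.62) in the male hippocampus, with the female arrays again on both sides of the males. Nr4a1 ran from 7.96 to 9.43 (median 8.90) in females and from 8.30 to 8.99 (median 8.63) in males. Junb ran from 5.76 to 6.88 (median 6.73) and from 6.02 to 6.54 (median 6.27). Egr2 lay near the low end of the scale in the hippocampus, from 3.35 to 4.67 (median 3.93) in females and from 3.30 to 3.85 (median 3.66) in males. Differences between arrays of such dim genes are understated on this scale.

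The order of the groups was the other way round in the frontal cortex, with each of the 5 genes at a higher median in males. Male Fos ran from 8.40 to 9.68 (median 8.97) and female Fos from 7.43 to 8.24 (median 7.94), with no overlap. The share of all genes that part the sexes in this way is not given here. Whether the separation is particular to Fos, or to the score, can therefore not be told. Egr2 ran from 4.77 to 6.54 (median 5.61) in males and from 3.69 to 4.89 (median 4.27) in females. Arc ran from 8.5 to 9.32 (median 8.98) in males and from 6.59 to 8.72 (median 7.92) in females. These ranges of Egr2 and Arc overlapped. Junb ran from 6.61 to 7.28 (median 6.90) in males and from 5.76 to 6.71 (median 6.19) in females. Nr4a1 ran from 9.18 to 10.06 (median 9.57) and from 8.20 to 9.23 (median 8.79). Only the ends of their ranges overlapped between the sexes.

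The 5 genes followed one another more closely in the hippocampus. There each gene's centred values correlated with the mean of the other 4 at r = 0.90 (Egr2) to 0.95 (Fos, Arc, Junb and Nr4a1) over 15 arrays. The frontal cortex values of r were 0.93 for Nr4a1, 0.83 for Fos, 0.79 for Egr2, 0.75 for Junb and 0.62 for Arc over 14 arrays. The genes of a pair share arrays and the 5 genes were selected on these data, so these values only describe the score.

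The scores of a mouse in its frontal cortex and in its hippocampus were positively correlated in females and negatively in males, over few mice. Over the 14 WT mice with both arrays the centred scores correlated at r = 0.47 (Spearman's rho 0.35), and at r = 0.34 (rho 0.25) over the 12 left without the farthest 2. Within the 6 females r was 0.89 (rho 0.94), and within the 8 males -0.52 (rho -0.50). The points of a pair share a mouse but no array, and the difference between the sexes was not tested. Female mouse 5 had the lowest centred score in both regions, -0.56 in the frontal cortex and -0.98 in the hippocampus. Female mouse 2 had the highest in both, 0.47 and 0.72. In TG mice r was 0.45 over 14 mice, 0.54 in 8 males and 0.59 in 6 females.

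No gene passed the test in both regions. The slope of each of 17211 other genes on the score, in log2 units of the gene per log2 unit of score, was fitted by limma with the cohort as a term and adjusted by the Benjamini-Hochberg method at 0.05. Frontal cortex arrays gave 0 genes past the threshold (0% of those tested). There 530 genes had an unadjusted p under 0.05 with a positive slope (3.08%) and 650 with a negative one (3.78%), and the smallest adjusted p was 0.386. In the hippocampus 4 genes passed (0.0232%), and 631 genes with positive slopes (3.67%) and 770 with negative slopes (4.47%) had an unadjusted p under 0.05. An unadjusted p under 0.05 in both regions was found for 129 genes, of which 79 had slopes of equal sign (0.459% of those tested) and 50 of opposite sign. Of the 79, 49 were positive and 30 negative. Over all genes, 53.3% had slopes of equal sign in the regions.

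In the hippocampus the genes that passed were Egr1, Per1, Dlx5 and Ctif. Egr1 encodes a zinc-finger transcription factor that, like Egr2, is induced by synaptic input. Its values ran from 10.12 to 10.88 (median 10.69) in the 8 male hippocampus arrays and from 10.09 to 11.38 (median 11.03) in the 7 female ones. The sexes overlapped, and the spread was wider in females, as for the score. Egr1 rose by 0.76 per log2 unit of score (SE 0.08, adjusted p = 0.000222), and its slope passed in each of 15 fits that left out an array, at 0.73 to 0.80. It was 0.92 (SE 0.22) within males and 0.74 (SE 0.08) within females. In the frontal cortex Egr1 ran from 11.26 to 12.17 (median 12.09) in males and from 11.14 to 11.55 (median 11.36) in females. Its slope there was 0.37 (SE 0.18, adjusted p = 0.723), 0.81 (SE 0.22) within males and -0.02 (SE 0.20) within females. Neither the difference between regions (0.40, SE 0.19, adjusted p = 0.708) nor that between the sexes in the frontal cortex (-0.83, SE 0.30, adjusted p = 0.408) passed.

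Per1 encodes a repressor of the circadian clock that is also induced by cAMP and calcium signals. It ran from 7.17 to 7.47 (median 7.34) in the male and from 7.0 to 7.76 (median 7.52) in the female hippocampus, with the male range inside the female one. Per1 rose by 0.43 per unit of score in the hippocampus (SE 0.06, adjusted p = 0.0134), 0.32 (SE 0.18) within males and 0.44 (SE 0.07) within females. In the frontal cortex, where it ran from 7.54 to 8.44 (median 8.01) in males and from 7.57 to 8.17 (median 7.76) in females, its slope was 0.53 (SE 0.15, adjusted p = 0.668). Dlx5, a homeobox gene of forebrain interneurons, rose by 0.45 in the hippocampus (SE 0.06, adjusted p = 0.0134) at a low level of 3.55 to 4.43. Dlx5 had in the frontal cortex a slope of 0.98 (SE 0.41, adjusted p = 0.71), and the array of male mouse 51 was far above the others at 6.79. Without that array the slope of Dlx5 was 0.34 (SE 0.20). Ctif, a factor for translation from newly exported mRNA, fell by 0.40 per unit of score in the hippocampus (SE 0.06, adjusted p = 0.0134), with a slope of -0.12 (SE 0.15) in the frontal cortex. Without the hippocampus array of female mouse 3, and without that of female mouse 5, none of Per1, Dlx5 and Ctif passed (adjusted p = 0.0811 to 0.219). Ctif was also lost without female mouse 2 (adjusted p = 0.0868) or 13 (0.0627). Without both choroid-rich hippocampus arrays, of mice 52 and 5, Egr1 passed (slope 0.78, SE 0.10, adjusted p = 0.0109), while Per1, Dlx5 and Ctif did not (adjusted p = 0.308 to 0.364).

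Genes were ordered by the smaller of their absolute t values in the regions among those of equal sign, and 10 positive and 5 negative ones are named. This order uses both regions, so their WT slopes are a description, and none of the 15 passed in both. The positive genes were Tiparp, Per1, Apold1, Btg2, Hnrnph1, Fosl2, Dclk1, Ier2, Msantd2 and Sertad1. Several are known immediate early genes. Tiparp encodes a mono-ADP-ribosyltransferase. It ran from 6.52 to 7.49 (median 6.77) in the male and from 6.00 to 6.62 (median 6.39) in the female frontal cortex, and from 6.75 to 7.16 (median 6.92) and from 6.60 to 7.28 (median 6.80) in the hippocampus. The sexes overlapped in both regions. Its slope was 0.61 (SE 0.13) in the frontal cortex and 0.32 (SE 0.07) in the hippocampus, and without the frontal cortex array of male mouse 51 the first came to 0.46.

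The steepest of these slopes in the frontal cortex was that of Apold1, an early response gene of endothelial cells, at 1.03 (SE 0.29), with 0.42 (SE 0.12) in the hippocampus. Btg2, an antiproliferative cofactor of mRNA deadenylation, had slopes of 0.72 (SE 0.21) and 0.39 (SE 0.12). Ier2, a nuclear immediate early protein, had 0.66 (SE 0.12, adjusted p = 0.386) and 0.36 (SE 0.13). It was the gene of smallest p in the frontal cortex and passed there in 1 of 14 fits that left out an array (adjusted p = 0.00269 without male mouse 39). Without mice 52 and 5 its hippocampus slope was 0.18 (SE 0.16). Fosl2, a Fos relative in AP-1, had 0.60 (SE 0.17) and 0.29 (SE 0.10), and the splicing factor gene Hnrnph1 0.60 (SE 0.16) and 0.29 (SE 0.09). The hippocampus slope of Fosl2 was 0.18 (SE 0.12) without mice 52 and 5. Sertad1, a regulator of cyclin-dependent kinase 4, had 0.37 (SE 0.13) and 0.44 (SE 0.10). Dclk1, a microtubule-associated kinase of neurons, had 0.28 (SE 0.10) and 0.17 (SE 0.05), and Msantd2 0.38 (SE 0.14) and 0.22 (SE 0.08).

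The negative genes were Klra2, Cnmd, Pkhd1, Kl and Alg2. Klra2, of a family of lectin-like receptors of natural killer cells, had slopes of -0.31 (SE 0.10) and -0.21 (SE 0.06). It was dim, with 3.50 as its highest male frontal cortex value (next 3.21) on a scale that starts at 2.28. That value was from mouse 38, at a centred score of -0.52. Over fits that left out an array its frontal cortex slope ran from -0.36 to -0.22. Cnmd, the secreted angiogenesis inhibitor chondromodulin, had -0.25 (SE 0.08) and -0.70 (SE 0.15), and Kl, klotho, a marker of choroid plexus, -0.30 (SE 0.11) and -1.42 (SE 0.47). The hippocampus slopes of Cnmd and Kl were -0.49 (SE 0.15) and -0.68 (SE 0.25) without the choroid-rich arrays of mice 52 and 5, which held the highest Cnmd values (4.74 and 4.96). With the choroid plexus list mean as a term they were -0.37 and -0.26. Pkhd1 had -0.27 (SE 0.09) and -0.15 (SE 0.05). Alg2, a mannosyltransferase of N-glycan assembly, had -0.28 (SE 0.10) and -0.19 (SE 0.07). The levels of Cnmd, from 3.15 to 3.65 in the frontal cortex and 3.58 to 4.96 in the hippocampus, were low on this scale.

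**Figure D2:**
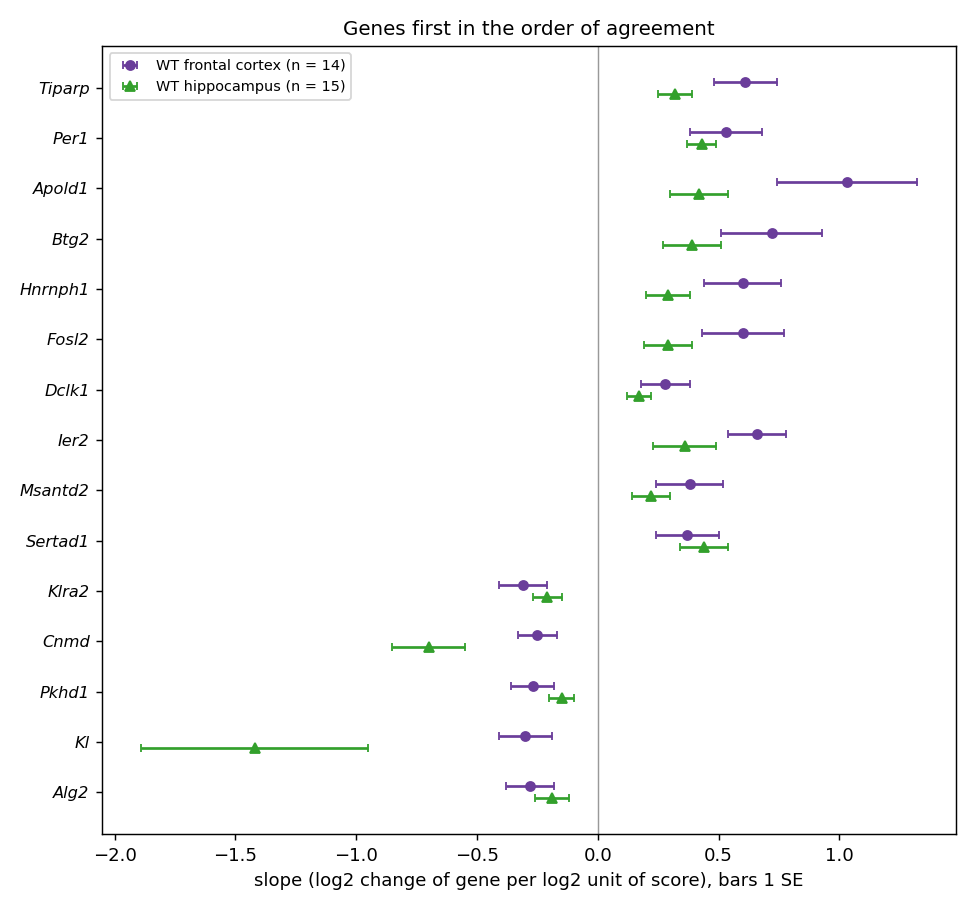
Slopes on the score (horizontal axis, log2 change of the gene per log2 unit of score, bars 1 SE) of the 10 positive and 5 negative genes first in the order of agreement, in 14 WT frontal cortex and 15 WT hippocampus arrays. Apold1 has the steepest positive slope in the frontal cortex (1.03) and Kl the steepest negative one in the hippocampus (-1.42, or -0.68 without mice 52 and 5).

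With 1 slope for both regions, fitted over all 29 WT arrays with 4 group means, 6 genes passed (0.0349% of those tested). Egr1 rose by 0.63 per unit of score (SE 0.09, adjusted p = 0.00359), Per1 by 0.46 (SE 0.07, 0.00359) and Tiparp by 0.42 (SE 0.07, 0.017). Sertad1 rose by 0.42 (SE 0.08), Dusp1 by 0.53 (SE 0.10) and Cnmd fell by 0.54 (SE 0.11), each at an adjusted p of 0.0478. Without the hippocampus arrays of mice 52 and 5, 2 genes passed, Tiparp (0.50, SE 0.08) and Per1 (0.49, SE 0.09), each at an adjusted p of 0.0316. Egr1 then had 0.58 (SE 0.11, adjusted p = 0.0855) and Cnmd -0.37 (SE 0.09, 0.216). With the mean of a tissue list as a term, striatal in the frontal cortex and choroid plexus in the hippocampus, 0 genes passed. Egr1 (0.57), Per1 (0.46) and Tiparp (0.41) each had an adjusted p of 0.0862 in that fit, and Cnmd -0.33 (0.225). Dusp1 encodes a phosphatase that switches off MAP kinases and is itself induced by them. It ran from 9.08 to 9.68 (median 9.45) in the male and from 8.21 to 9.08 (median 8.87) in the female frontal cortex. In the hippocampus it ran from 8.11 to 8.45 (median 8.23) in males and from 7.53 to 8.94 (median 8.25) in females. The male hippocampus arrays lay inside the female range.

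Because 14 of the 15 WT mice gave arrays of both regions, the fit was repeated with the mouse as a block. With a random block 3 genes passed, Egr1 (adjusted p = 0.00334), Per1 (0.00532) and Tiparp (0.0221), and with the mouse as a fixed term 1, Egr1 (slope 1.03, SE 0.15, adjusted p = 0.0488). Per1 passed in all 29 fits that left out an array (slope 0.43 to 0.49), Egr1 in 28 and Tiparp in 27. Egr1 missed the threshold without the hippocampus array of female mouse 5 (adjusted p = 0.0534). Tiparp missed it without the frontal cortex array of female mouse 5 (0.0607) or the hippocampus array of female mouse 2 (0.0598). Sertad1, Dusp1 and Cnmd passed in 6, 5 and 5 of the 29.

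**Figure D3:**
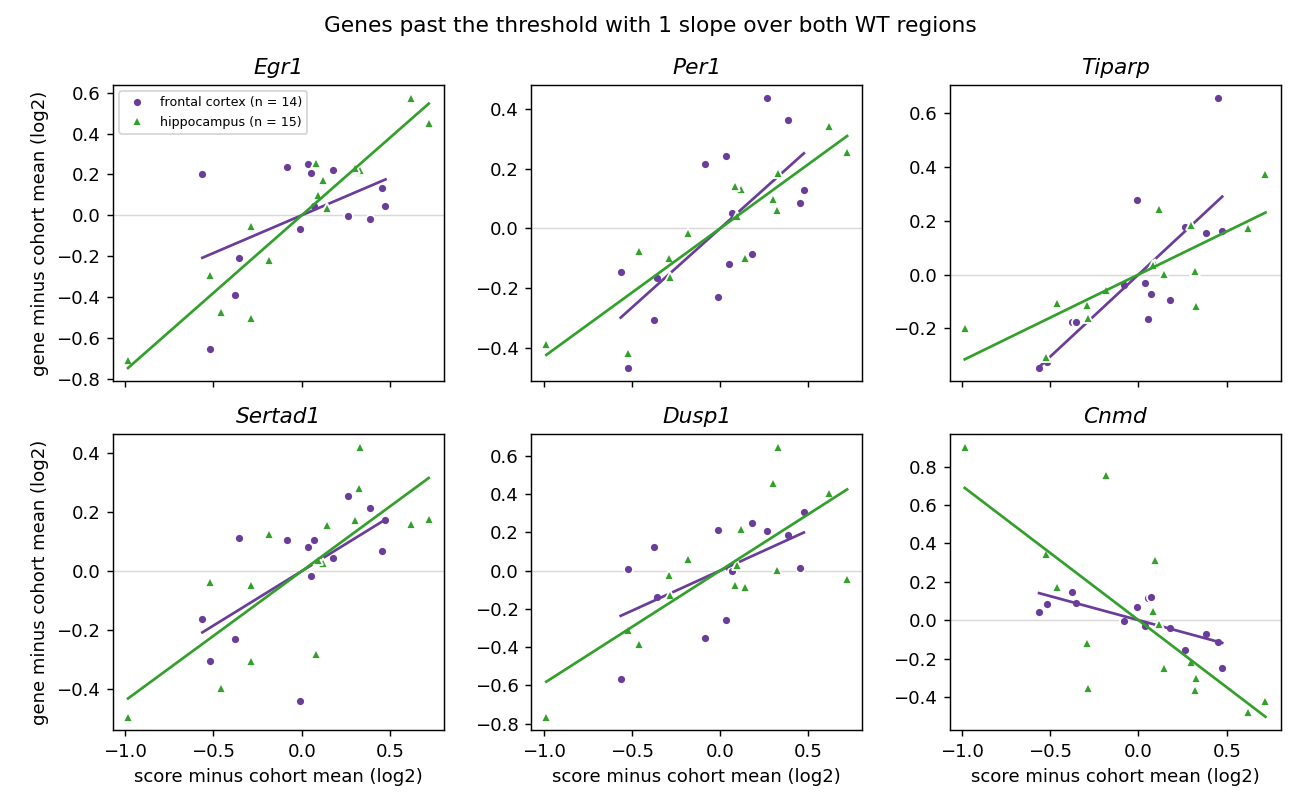
Expression minus cohort mean (vertical axis, log2) against score minus cohort mean (horizontal axis, log2) in 14 frontal cortex (circles) and 15 hippocampus (triangles) WT arrays, with the slope of each region's fit as a line, for the 6 genes past the threshold with 1 slope. Egr1 follows the score closely in the hippocampus (slope 0.76), while Cnmd has a slope of -0.70 there, or -0.49 without mice 52 and 5.

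No gene's slope differed between the regions past the threshold (0%, 1200 genes at an unadjusted p under 0.05, limma). The same held for the female against the male slope in the frontal cortex (0%, 1702 genes) and in the hippocampus (0%, 610 genes). Of the 10 positive genes, 9 had positive slopes in both sexes and both regions, and Ier2 had -0.10 (SE 0.36) in the male hippocampus. The same arrays chose these 10 genes, so the signs are partly fixed by the choice and serve as a description. Some of the slopes were small beside their SE, as for Fosl2 (0.04, SE 0.27) and Hnrnph1 (0.13, SE 0.26) in the male hippocampus. Tiparp had 0.76 (SE 0.19) in males and 0.47 (SE 0.18) in females in the frontal cortex, and 0.37 (SE 0.21) and 0.31 (SE 0.08) in the hippocampus. Dusp1 had 0.10 (SE 0.21) in males and 0.71 (SE 0.20) in females in the frontal cortex, and 0.12 (SE 0.35) and 0.65 (SE 0.13) in the hippocampus.

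The other genes of the activity response were taken from 4 lists, which were chosen with earlier results known. Of 22 activity-induced transcription factors and cofactors, 19 had a positive slope in the frontal cortex and 18 in the hippocampus. Their median slopes were 0.22 and 0.23, against -0.01 for all genes in each region, of which 47.1% and 46.7% were positive. In the hippocampus 2 of the 22 passed, Egr1 and Per1, and in the frontal cortex 0. An unadjusted p under 0.05 with a positive slope was found for 9 and 11 of the 22, against 3.08% and 3.67% of all genes. Without male mouse 51 the frontal cortex count fell from 9 to 5, with a median slope of 0.24.

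Npas4, a transcription factor induced by calcium entry in neurons, had slopes of 0.74 (SE 0.30) in the frontal cortex and 0.36 (SE 0.12) in the hippocampus. Fosb, another AP-1 subunit, had 0.77 (SE 0.19) and 0.10 (SE 0.08). Klf4 had 0.57 (SE 0.21) and 0.55 (SE 0.21). Nr4a2, a relative of Nr4a1, had -0.19 (SE 0.38) and 0.47 (SE 0.13), and Jun 0.08 (SE 0.19) and -0.10 (SE 0.10). Klf6 was the one member with a negative slope at an unadjusted p under 0.05, -0.25 (SE 0.11) in the frontal cortex. The mean of the 22 genes correlated with the score at r = 0.91 over 14 frontal cortex and 0.94 over 15 hippocampus arrays, which share the arrays and their normalization with it.

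Among 28 measured signalling and synaptic effectors, 24 had a positive slope in the frontal cortex (median 0.15) and 19 in the hippocampus (median 0.10), with 8 and 7 positive at an unadjusted p under 0.05, again against 3.08% and 3.67% of all genes. None passed in a single region. Gadd45b, a stress and activity gene linked to DNA demethylation, had slopes of 0.25 (SE 0.11) and 0.37 (SE 0.10). Midn had 0.48 (SE 0.18) and 0.31 (SE 0.09). Sik1, a kinase that restrains CREB signalling, had 0.49 (SE 0.11) and 0.06 (SE 0.12). Homer1, a postsynaptic scaffold, had 0.02 (SE 0.12) and 0.16 (SE 0.06), and Nrn1 -0.24 (SE 0.16) and -0.13 (SE 0.07).

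The MAP kinase phosphatases and Ras-ERK inhibitors numbered 10, of which 8 and 6 had positive slopes (medians 0.08 and 0.07). Dusp6, which dephosphorylates ERK, had the smallest p of them in the hippocampus, with a slope of 0.42 (SE 0.07, adjusted p = 0.0835) there and 0.20 (SE 0.12) in the frontal cortex. Of the 12 secreted proteins, 10 had positive slopes in the frontal cortex (median 0.30) and 9 in the hippocampus (median 0.10). Penk, the enkephalin precursor, had 0.63 (SE 0.21) and 0.12 (SE 0.09), Nptx2, a synaptic pentraxin, 0.31 (SE 0.10) and 0.04 (SE 0.07), and Bdnf, the neurotrophin, 0.28 (SE 0.17) and 0.09 (SE 0.10). The frontal cortex array of male mouse 51 had the highest mean of the secreted list (6.51, median 5.96), and without it the median slope was 0.24. With 14 measured clock genes, 12 had positive slopes in each region (medians 0.13 and 0.11), and Per2 had 0.45 (SE 0.24) and 0.21 (SE 0.14). Arntl had slopes of opposite sign, -0.25 (SE 0.12) and 0.28 (SE 0.08), each at an unadjusted p under 0.05 (limma). Hlf also differed in sign, with -0.17 (SE 0.12) and 0.25 (SE 0.11).

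**Figure D4:**
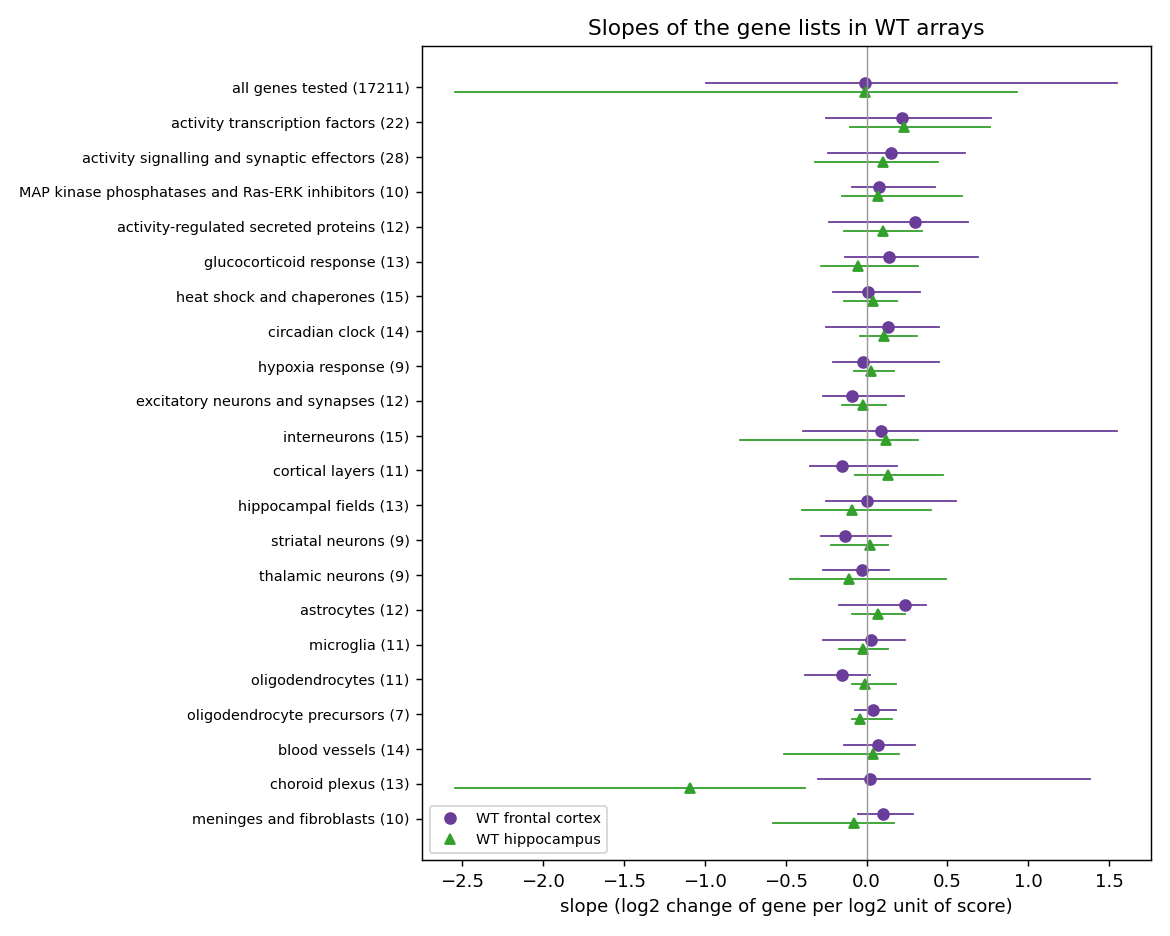
Slopes on the score of 21 gene lists (blood cells, with 2 measured genes, left out) and of all genes tested, with the number of measured genes in brackets; the horizontal axis is the log2 change of a gene per log2 unit of score, symbols are medians and lines run from the lowest to the highest gene. The activity transcription factors have medians of 0.22 and 0.23, and the choroid plexus list has -1.09 in the hippocampus.

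Slopes on the score were also read for markers of other cells. None passed the threshold in either region for choroid plexus, astrocytes, interneurons or excitatory neurons. The part of these cells in the results above was not tested beyond the fits with a list mean as a term and those without single arrays. In the hippocampus all 13 measured choroid plexus markers had negative slopes (median -1.09), 8 of them at an unadjusted p under 0.05, against 4.47% of all genes with negative slopes. Transthyretin, Ttr, the chief product of choroid plexus epithelium, ran from 6.92 to 13.56 (median 10.43) in the male and from 6.58 to 13.10 (median 10.24) in the female hippocampus. Its slope was -2.54 (SE 1.02). The list mean ran from 3.56 to 7.26, highest in male mouse 52 at a centred score of -0.18 and next in female mouse 5 at -0.98. Without both arrays the median slope was -0.14, with 13 of 13 still negative and 4 at an unadjusted p under 0.05. That last count was 0 without female mouse 5 alone (median -0.46) and 13 without male mouse 52 alone (median -0.9). With the list mean as a term in the hippocampus fit, Egr1 passed (slope 0.75, adjusted p = 0.0057) and Per1 did not (0.45, 0.119). In the frontal cortex 7 of the 13 were positive (median 0.02).

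Of 12 astrocyte markers, 11 had positive slopes in the frontal cortex (median 0.24) and 9 in the hippocampus (median 0.07), and their mean correlated with the score at r = 0.62 and 0.43. Without the frontal cortex array of male mouse 51, 11 were still positive there, with a median of 0.17. Of these, 0 then had an unadjusted p under 0.05, against 3 with that array. Gja1, the gap junction protein connexin 43, had slopes of 0.30 (SE 0.11) and 0.18 (SE 0.06). Of 15 interneuron markers, 11 and 12 had positive slopes (medians 0.09 and 0.12). The frontal cortex array of male mouse 51, at a centred score of 0.45, had Gad1 at 11.73, Dlx1 at 8.65 and Calb2 at 9.61, each the highest of the 14. Without it no interneuron marker had an unadjusted p under 0.05 there, against 3 with it. In the hippocampus 3 interneuron markers were positive and 1 negative at an unadjusted p under 0.05. Without the hippocampus array of female mouse 5 these counts were 0 and 1, and 9 of the 15 slopes were positive (median 0.06). The means of 12 excitatory neuron genes correlated with the score at r = -0.50 and -0.23, over list means of 9.51 to 9.72 and 9.73 to 9.92. The array median correlated with the score at r = 0.61 in the frontal cortex and -0.16 in the hippocampus. In dissected tissue fewer cells of a type and less RNA per cell cannot be told apart.

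Lists of stress responses and of other cells gave the following counts and medians. Of 13 glucocorticoid-responsive genes, which corticosterone drives, 11 had positive slopes in the frontal cortex (median 0.14) and 5 in the hippocampus (median -0.05), none at an unadjusted p under 0.05. The 15 heat shock and chaperone genes had medians of 0.01 and 0.04, with 9 and 8 positive and again none at an unadjusted p under 0.05. The 9 hypoxia genes had medians of -0.02 and 0.03. Among regional markers, 11 cortical layer genes had medians of -0.15 (2 positive) and 0.13 (9 positive), and 13 genes of hippocampal fields 0.00 and -0.09. The 9 striatal neuron genes had -0.13 and 0.02, and the 9 thalamic ones -0.03 and -0.11. Of 11 oligodendrocyte genes, 1 was positive in the frontal cortex (median -0.15) and 5 in the hippocampus (median -0.01). Microglia (0.03 and -0.02), oligodendrocyte precursors (0.04 and -0.04), blood vessels (0.07 and 0.04), and meninges and fibroblasts (0.10 and -0.08) had medians within 0.10 of 0. The 2 measured blood cell genes had 0.31 and 0.01. Some of these medians rested on single arrays. Without the frontal cortex array of male mouse 51, meninges and fibroblasts had -0.11, with 1 of 10 positive against 8 with it. Cortical layer genes then had -0.05 (4 of 11 positive), striatal genes -0.03 and glucocorticoid-responsive genes 0.09 (9 of 13 positive). Without the hippocampus array of female mouse 5, oligodendrocytes had 0.16 (11 of 11 positive) and hippocampal fields 0.15. Thalamic genes then had -0.35 (1 of 9 positive, 3 negative at an unadjusted p under 0.05). The hippocampus medians of the glucocorticoid and heat shock genes stayed at -0.05 and 0.04 without female mouse 5.

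The TG arrays gave the same measure in mice that the order of agreement did not use. Their centred scores spanned 1.43 log2 units in the frontal cortex (SD 0.34, n = 14) and 0.64 in the hippocampus (SD 0.18, n = 15), a narrower spread than in the WT hippocampus. In the TG frontal cortex 1 gene passed (0.00581%), Dusp1, with a slope of 1.0 (SE 0.13, adjusted p = 0.0204). Leaving out the 2 arrays farthest from the median score gave 0 there, so that Dusp1 no longer passed. In the TG hippocampus 0 passed (0%, 936 genes at an unadjusted p under 0.05, limma). Without the array of mouse 7 there were 3 of 17211. Without those of mice 4 and 7, a choice made after seeing the data, there were 33 of 17211. Among the 33 were 7 of the 13 choroid plexus markers, all 13 of which had negative slopes. With 1 slope over both TG regions again 1 passed (0.00581%), Dusp1 at 0.94 (SE 0.12, adjusted p = 0.000133), and the same slope was 0.93 (SE 0.12) without the hippocampus arrays of mice 4 and 7. In TG mice Dusp1 ran from 8.47 to 9.04 (median 8.59) in the male and from 7.29 to 8.91 (median 8.10) in the female frontal cortex. The ends of the female range were the arrays of mice 4 and 9. These also had the lowest and highest centred scores of the TG frontal cortex (-0.74 and 0.69).

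Of the 10 positive genes in the order of agreement, 8 had positive slopes in the TG frontal cortex (median 0.23, all genes -0.01) and 8 in the TG hippocampus (median 0.10, all genes 0.03). Over all genes 47.5% and 55.1% of slopes were positive. An unadjusted p under 0.05 with a positive slope was found for 4 and 1 of the 10. Of the 5 negative genes, 2 and 1 had negative slopes in these regions. Without mice 4 and 7 the TG hippocampus counts were 8 of 10 (median 0.10) and 3 of 5 (median -0.04), and Kl fell by 5.7 per unit of score (SE 0.94, adjusted p = 0.0306). With 1 slope over both TG regions Btg2 had 0.72 (SE 0.15, adjusted p = 0.265), Per1 0.31 (SE 0.14) and Tiparp 0.30 (SE 0.13), while Hnrnph1 had -0.20 (SE 0.15) and Fosl2 -0.03 (SE 0.14). Egr1, which passed in WT, had 0.58 (SE 0.17, adjusted p = 0.475) in TG arrays, and Cnmd 0.05 (SE 0.19). No slope differed between TG and WT past the threshold in the frontal cortex (0%, 1314 genes at an unadjusted p under 0.05, limma) or in the hippocampus (0%, 1286 genes). The intervals of single genes were wide: for Dusp1 in the frontal cortex the TG slope exceeded the WT slope by 0.58 (SE 0.22, adjusted p = 0.508).

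**Figure D5:**
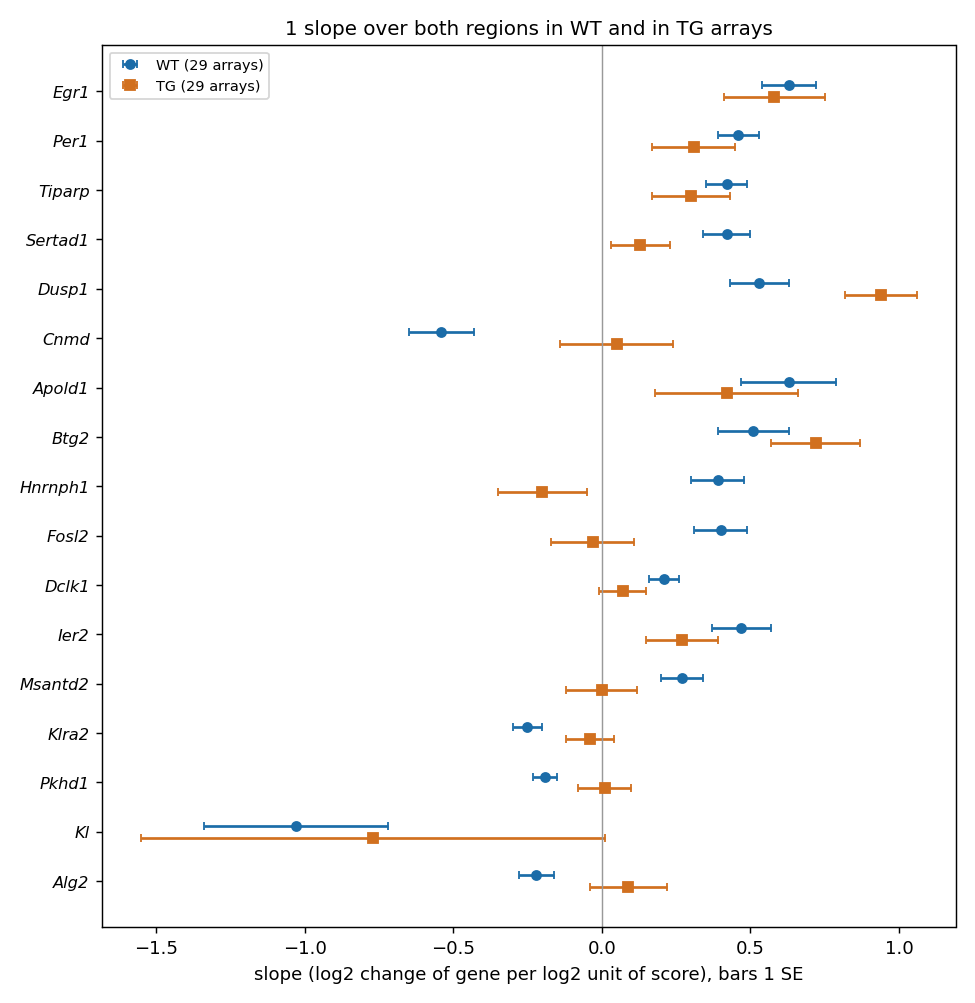
Slope on the score fitted over both regions (horizontal axis, log2 change of the gene per log2 unit of score, bars 1 SE) in 29 WT and 29 TG arrays for the 6 genes past the threshold in WT and the genes first in the order of agreement. Dusp1 has 0.53 in WT and 0.94 in TG arrays, and Cnmd -0.54 and 0.05.

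Over all 58 arrays, with 1 slope and 8 group means, 15 genes passed (0.0872%), 14 positive and 1 negative. This fit shares the WT arrays with those above. The positive genes were Dusp1 (0.65, SE 0.08, adjusted p = 1.36e-06), Egr1 (0.61, SE 0.09, 2.9e-05), Btg2, Per1, Tiparp, Gadd45b, Ier2, Sertad1, Rbm3, Dusp6, Egr4, Sbk1, Pvr and Uba6, and the negative one Etfbkmt. Rbm3, a cold-inducible RNA-binding protein, had a slope of 0.57 (SE 0.11, adjusted p = 0.0115), and Egr4, a further Egr factor, 0.34 (SE 0.07, 0.0277). Within the frontal cortex Btg2, Ier2 and Dusp1 passed over both genotypes, and within the hippocampus Dlx5, Egr1, Dusp1 and Dusp6, so that Dusp1 passed in both regions, at 0.71 (SE 0.12, adjusted p = 0.0284) and 0.61 (SE 0.11, 0.0264).

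The genes were also set against the score in the other region of the same mouse. On the frontal cortex score, 0 genes of the WT hippocampus passed (0%, 1274 at an unadjusted p under 0.05, limma, n = 14). On the hippocampus score 0 genes of the frontal cortex passed (0%, 817 genes). Of the 10 positive genes in the order of agreement, 9 had positive slopes each way, against 49.1% and 50.5% of all genes (medians 0.24 and 0.10, all genes 0.00). All 5 negative genes had negative slopes (medians -0.17 and -0.13). These gene values also chose the 15 genes, and the scores of the regions are correlated (r = 0.47), so the signs are partly fixed by the choice and serve as a description. Ier2 had 0.51 (SE 0.18) in the hippocampus on the frontal cortex score and 0.33 (SE 0.14) the other way. For Egr1 these slopes were 0.24 (SE 0.25) and -0.11 (SE 0.16).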

How the data were processed

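RNA was labelled with the GeneChip HT 3′ IVT PLUS kit and hybridised to Affymetrix arrays, per the labels' protocols. Per the submitters' processing notes, which name R 3.2.2 and RMA, the authors deposited normalized log2 expression values, 1 per probe set. No source used here names the chip definition file. RMA normalizes arrays together and leaves dim probe sets unmarked, so differences of genes near the low end are understated. Of 17856 probe sets 17216 have 1 gene symbol in the platform annotation and 640 have none. The 5 score genes were left out, and 17211 genes entered the fits. Precision is limited by how many arrays there are.

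Slopes were fitted with lmFit and eBayes of limma 3.58.1 in R 4.3.3 with the cohort as a term, two-sided, at 0.05 after Benjamini-Hochberg adjustment over all 17211 genes, and the fits were tested on simulated data. Errors are SE. Members, score and gene lists were chosen with earlier results of these data known. Genes were named by their order of agreement, by smallest p, by passing a fit, and as list members. List members given as examples beyond this rule (such as Fosb, Klf6 and Bdnf) were chosen after their values were seen. Of 299 members of 22 lists 272 were measured. The labels pair the regions by mouse. Deviations from the group means of a WT mouse's arrays correlated from -0.033 to 0.215 (median 0.104), over 0.1 in 7 of 14 mice. Alternatives covered the score, cohort term, scaling, filter, prior, weights, threshold, tissue lists as covariates, left-out arrays and the mouse block.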

Additional observations from a re-analysis of the deposited data

Results flagged for a closer look

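Among 120 tests of a group's most extreme array, 8 stood out, where chance gives about 1 in 20. In the frontal cortex array of female WT mouse 1, Dclk1 was 9.31 (next 9.07), Msantd2 6.63 (next 6.13) and Pde1a 8.99 (next 9.38). In male WT frontal cortex arrays, Klra2 was 3.50 in mouse 38 (next 3.21), Dlx5 6.79 in mouse 51 (next 4.85) and Supt7l 5.71 in mouse 39 (next 5.31). In the male WT hippocampus, Kl was 8.09 in mouse 52 (next 5.27), and Ankef1 3.12 in mouse 49 (next 3.30).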

How the results depend on the processing

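In the order frontal cortex, hippocampus, both regions with equal sign, and 1 slope over both regions, 0, 4, 0 and 6 WT genes passed. Without the cohort term the counts were 35, 2, 1 and 78. Without the 2 arrays farthest from the median score they were 0, 2, 0 and 1. With the striatal or choroid plexus list mean as a covariate the hippocampus and 1-slope counts were 1 and 0. Without the hippocampus arrays of mice 52 and 5, chosen after seeing the data, they were 2 and 2. At a threshold of 0.01 they were 1 and 2. With TG arrays in the same fits the counts were 3, 4, 1 and 15. The 1-slope count was 3 with the score without Fos, Arc or Junb, with score genes scaled to equal SD, and with blood vessels or oligodendrocytes as a covariate, and 2 with astrocytes as a covariate, chosen after seeing the data. With both regions in 1 fit, no replicate block gave 6, a random replicate block 3 (consensus correlation 0.084) and a fixed replicate block 1. The block, fitted for the slope difference between regions, left that count at 0. Leaving out each array gave 0 to 1 in the frontal cortex (1 without male mouse 39), 1 to 8 in the hippocampus (1, 2 and 8 without female mice 3, 5 and 1), 0 in both regions and 2 to 7 with 1 slope. In 14 of these 29 fits the last count moved by over 1.5 times, to 2 or 3. The TG frontal cortex count went from 1 to 0, and that of the TG hippocampus from 0 to 1, without the 2 farthest arrays. The latter was 3 without mouse 7 and 33 without mice 4 and 7, chosen after seeing the data, of which 7 were choroid plexus markers. The slope of Cnmd in the frontal cortex turned from -0.25 to 0.00 without the cohort term. Where fewer arrays were fitted, less data is part of the change, and other causes were not tested. With 14 and 15 arrays small slopes could not be detected.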
